A study of Homo sapiens with 3 samples.

Results

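The MAPK feedback and ERK output genes are 10 transcripts that serve as a readout of BRAF-driven ERK signaling: DUSP4, DUSP6, SPRY2, SPRY4, SPRED1, SPRED2, ETV4, ETV5, PHLDA1 and CCND1. They were listed by gene symbol, with earlier results of these data known, and all 10 were found among the 58037 genes of the count table. Their transcript levels were measured by poly(A) RNA sequencing in A375, an established human melanoma cell line. The cells had been kept for 24 h in serum-free DMEM (control), in the secretome of young adipocytes (YA-A375) or in the secretome of old adipocytes (OA-A375), and each group had 1 library. A secretome is serum-free DMEM conditioned by adipocytes, which the study differentiated from human donor preadipocytes in medium with insulin, dexamethasone, indomethacin and IBMX. All 3 groups therefore lacked serum. How many donors stood behind each secretome is not given in the sources used here, and the protocol attached to the samples also allows a longer exposure. In the study's donor list the old donors were all male and mostly from a biobank. The young donors were mostly female and mostly purchased, so donor age cannot be told apart from sex and source.

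In the MAPK cascade, active RAS recruits RAF kinases, RAF activates MEK, and MEK activates ERK, which phosphorylates transcription factors in the nucleus. A375 cells carry an activating BRAF mutation, so ERK signaling runs in them without a growth factor. ERK also switches on its own brakes, namely phosphatases that act on ERK and Sprouty and SPRED proteins that act above it, and transcripts of these brakes are widely used to gauge ERK output in melanoma.

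Because each group had 1 library, no difference described here has a replicate check and no p-value was computed. Counts were divided by size factors of 1.06 for control, 1.06 for YA and 0.891 for OA, and a fold is the ratio of 2 such normalised read counts. The 95% interval beside a fold covers counting error only, and it compares libraries rather than conditions. It treats reads as independent. Without molecular identifiers 1 molecule can give several reads, so the interval may be too narrow even for counting error. YA against control and OA against control share the control library, so they are not independent of each other. Library totals lay between 18089008 (OA) and 21448195 (control). All 10 genes were well counted, from 1361 counts of SPRED2 in OA to 16871 of DUSP4 in OA, and all passed the filter of 20 on the mean normalised count. Of 10 melanocytic markers, MITF had 1221, 764 and 881 counts in control, YA and OA, and S100B had 843, 591 and 550. CSPG4, the most abundant of them, was highest in YA, with 19441, 29002 and 16208 counts. SOX10 was at 0 counts in all 3 libraries, which allows up to 3 counts in each, and PMEL, TYR and DCT had 10 counts or fewer. The bound for SOX10 does not cover reads that may have been left out in counting, where the use of strand is not given. Among 8 adipocyte markers ADIPOQ had at most 1 count in a library, PLIN1 at most 5 and LEP 0. Others of this list were counted and differed between libraries, with LPL at 353, 583 and 30 counts, PLIN4 at 284, 579 and 321 and CIDEC at 6, 31 and 36 in the same order. FABP4 had 16, 15 and 2 counts, and CFD had 28, 35 and 40. After scaling by size factors, LPL and FABP4 were lower in OA than in control, while PLIN4, CIDEC and CFD were higher. Of the fibroblast markers, DCN had 13, 138 and 24 counts, while COL1A2 and COL3A1 had at most 2. COL1A1, with 75, 117 and 84 counts, and LUM, with 66, 101 and 58, also had their largest count in YA. PDGFRA went the other way, with its smallest count in YA, at 76, 20 and 51. POSTN had its largest count in OA, at 6, 10 and 27, and THY1 had 4, 1 and 2 counts. PDGFRB, the most abundant of this list, had 515, 568 and 334 counts. The summed adipocyte markers were 32.2, 58.6 and 23.8 CPM (counts scaled to the library total) in the control, YA and OA libraries, and 9 fibroblast markers summed to 35.2, 44.9 and 32.2. The 10 melanocytic markers summed to 1005, 1428 and 978 CPM. Most of each melanocytic sum was CSPG4, while MITF and S100B had fewer counts in YA than in control. The part of these sums in the results was not tested.

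The clearest difference was in OA-A375, where genes of the set went in opposite directions. SPRY4, DUSP6, SPRY2 and SPRED2 were lower than in control, at 0.244, 0.599, 0.676 and 0.715-fold, while DUSP4 and PHLDA1 were higher, at 1.51 and 1.49-fold. In YA-A375 SPRY4 and CCND1 were lower, at 0.724 and 0.741-fold of control, and ETV4 was higher, at 1.27-fold. SPRED1 and ETV5 lay within 1.2-fold, the study's cutoff read as a linear fold, in every comparison. In bulk RNA a change in the number of cells that express a gene and a change in RNA per cell cannot be told apart.

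**Figure D1:**
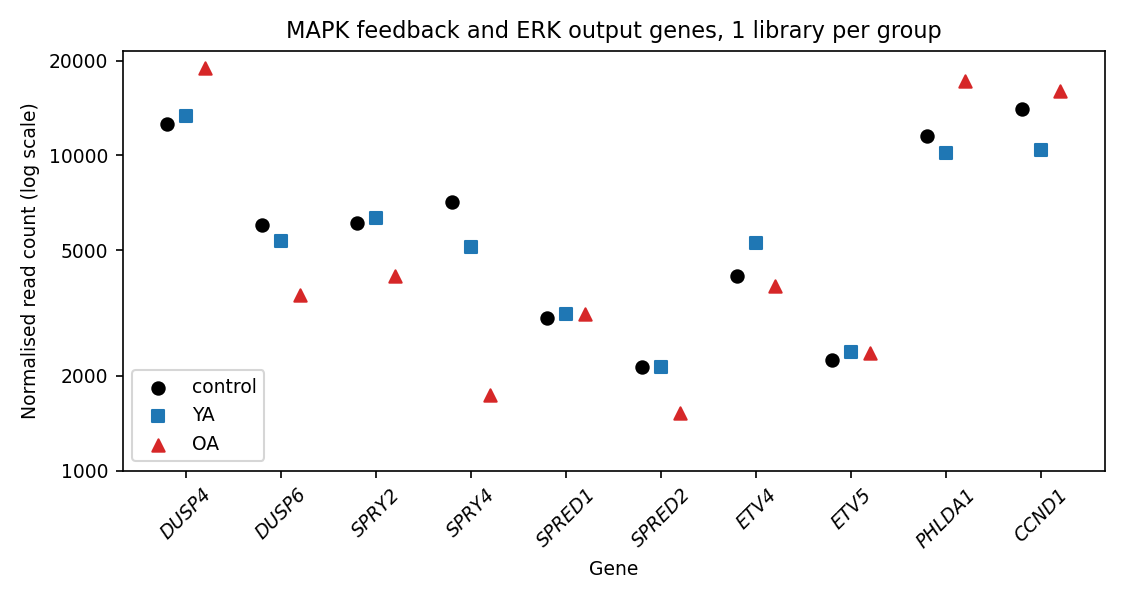
Normalised read counts of the 10 genes (y axis, log scale) in control (black circles), YA (blue squares) and OA (red triangles), with 1 library per group and no error bars. SPRY4 is at 7092 in control and 1733 in OA, while DUSP4 and PHLDA1 have their highest points in OA, at 18938 and 17174.

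**Figure D2:**
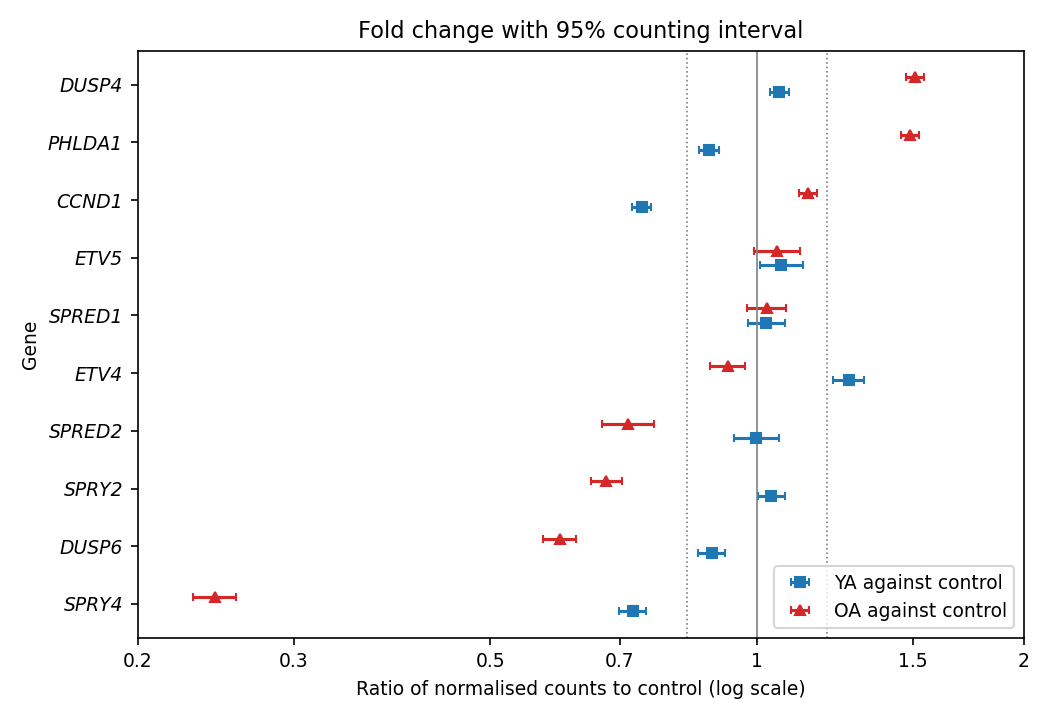
Ratio of normalised counts to control for each gene (x axis, log scale) in YA (blue squares) and OA (red triangles), with bars for the 95% counting interval, a solid line at 1 and dotted lines at 1.2-fold in either direction. SPRY4 at 0.244 stands furthest left in OA, and DUSP4 at 1.51 furthest right.

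Both dual-specificity phosphatases remove phosphate from activated MAP kinases. DUSP6 (ENSG00000139318.7; GRCh38 chromosome 12, 89347232 to 89353271) is the cytoplasmic phosphatase that is selective for ERK. Its normalised read count was 6033, 5360 and 3614 in the control, YA and OA libraries. The OA library was thus the lowest, at 0.599-fold of control (interval 0.574 to 0.625), while YA lay at 0.888-fold (0.857 to 0.921). DUSP4 (ENSG00000120875.8; GRCh38 chromosome 8, 29333064 to 29350668) is a nuclear phosphatase for ERK and other MAP kinases. It had normalised read counts of 12557, 13309 and 18938 in the control, YA and OA libraries. Its OA value was 1.51-fold of control (1.47 to 1.54) and its YA value 1.06-fold (1.04 to 1.09). These phosphatases therefore parted in OA, where one was the lower and the other the higher library of the 3.

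The parting is also seen without any scaling between libraries, in the number of DUSP4 reads for each DUSP6 read. This ratio was 2.08 (2.02 to 2.14) in the control library, 2.48 (2.41 to 2.56) in the YA library and 5.24 (5.05 to 5.44) in the OA library. Because the genes differ in length, such a ratio can be compared between libraries but is not a ratio of transcript numbers. In the annotation used for positions, 40.5% of the exonic bases of DUSP6 are shared with an antisense gene, AC024909.2. That gene had 5, 2 and 0 counts in control, YA and OA. The use of strand in counting is not given in the sources used here, so reads from the shared bases may have been left out or given to either gene.

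Sprouty proteins block the path from receptor tyrosine kinases to RAS and RAF, and their genes are induced by the signaling they restrain. SPRY4 (ENSG00000187678.8; GRCh38 chromosome 5, 142310427 to 142326455) had the largest difference of the 10 genes. Its normalised read count was 7092, 5133 and 1733 in the control, YA and OA libraries, so that both secretome libraries were below control and OA was the lowest. The OA value was 0.244-fold of control (0.231 to 0.258) and the YA value 0.724-fold (0.699 to 0.750). Between the secretomes, SPRY4 was 2.96-fold higher in YA than in OA (2.80 to 3.14). Of 4694 well-counted genes, whose mean normalised count reached 1000, 5 had a lower fold than SPRY4 in OA against control and 83 in YA against control.

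SPRY2 (ENSG00000136158.11; GRCh38 chromosome 13, 80335976 to 80340951) had normalised read counts of 6117, 6349 and 4136 in the control, YA and OA libraries. It was 0.676-fold of control in OA (0.649 to 0.704) and 1.04-fold in YA (1.00 to 1.07). For SPRY2 the OA library stood apart and YA differed little from control, while for SPRY4 all 3 libraries were well separated. The number of SPRY4 reads for each SPRY2 read was 1.16 in the control library, 0.808 (0.780 to 0.838) in the YA library and 0.419 (0.395 to 0.445) in the OA library.

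The sequence upstream of the transcription start is shown for SPRY4 and SPRY2 because these related genes were both lower in OA, by unequal amounts. Each stretch holds the 250 bases before a RefSeq start on GRCh38.p14 and is read 5′ to 3′ on the minus strand. It lies at chr5:142324248-142324497 for SPRY4 and at chr13:80341127-80341376 for the most upstream of 3 listed starts of SPRY2. The SPRY2 stretch lies outside the span of that gene given above, which ends at 80340951. Capitals mark the letters GGAA or, on the other strand, TTCC, the core read by ETS-family factors such as ETV4 and ETV5.
SPRY4: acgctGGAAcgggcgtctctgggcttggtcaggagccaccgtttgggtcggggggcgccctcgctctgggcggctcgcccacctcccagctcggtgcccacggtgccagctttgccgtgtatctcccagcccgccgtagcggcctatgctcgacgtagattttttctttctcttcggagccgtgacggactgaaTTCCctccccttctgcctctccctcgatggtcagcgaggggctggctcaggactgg
SPRY2: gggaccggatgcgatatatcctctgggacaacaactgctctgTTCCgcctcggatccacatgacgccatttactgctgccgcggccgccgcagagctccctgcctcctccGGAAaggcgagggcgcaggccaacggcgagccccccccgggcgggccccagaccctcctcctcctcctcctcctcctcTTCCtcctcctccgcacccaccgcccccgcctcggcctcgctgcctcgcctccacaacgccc
The core occurs 2 times in the SPRY4 stretch and 3 times in that of SPRY2. At least 1 match is found in 92.7% of 35116 RefSeq stretches of this length, with a median of 3, so the core alone does not set these genes apart. The longer form CCGGAA, which contains the core, is found in this SPRY2 stretch and in 14.5% of all stretches. It is absent from the SPRY4 stretch and also from those before the other 2 SPRY2 starts, which hold 4 matches to the core each. Part of the SPRY4 stretch lies in an exon of a noncoding SPRY4 transcript in GENCODE.

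RefSeq starts were at hand for 6 of the 10 genes, with 9 stretches in all. DUSP6 had 6 matches to GGAA on either strand, PHLDA1 4, SPRED1 3 and SPRED2 4 or 5 according to the start. PHLDA1 also held CCGGAA. Neither TGANTCA, the letters of the AP-1 site, nor TGACGTCA, those of the cAMP response element, was in any of the 9 stretches, beside 6.57% and 1.65% of all stretches. Such matches are a description of letters, not of binding.

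SPRED proteins bind RAS regulators and hold down RAF activation. SPRED2 (ENSG00000198369.9; GRCh38 chromosome 2, 65310851 to 65432637) had normalised read counts of 2135, 2132 and 1528 in the control, YA and OA libraries. The control and YA libraries did not differ beyond counting error, with a fold of 0.999 (0.942 to 1.06), and OA was at 0.715-fold of control (0.668 to 0.766). SPRED1 (ENSG00000166068.12; GRCh38 chromosome 15, 38252326 to 38357249) recruits neurofibromin, a RAS GTPase-activating protein. Its normalised read counts were 3059, 3134 and 3136 in control, YA and OA, and its folds of 1.02 in YA (0.976 to 1.08) and 1.03 in OA (0.974 to 1.08) both had intervals that held 1. Counting error alone would thus allow a difference of up to 1.08-fold, while the spread between cultures was not measured. The number of SPRED2 reads for each SPRED1 read was 0.698 (0.661 to 0.737) in the control library, 0.680 (0.645 to 0.718) in the YA library and 0.487 (0.456 to 0.520) in the OA library.

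ETV4 and ETV5 are ETS-family transcription factors of the PEA3 group, whose genes are activated when ERK relieves repression by Capicua. ETV4 (ENSG00000175832.12; GRCh38 chromosome 17, 43527844 to 43579620) was the only gene of the 10 more than 1.2-fold higher in YA. Its normalised read counts were 4141, 5253 and 3837 in the control, YA and OA libraries, with folds of 1.27 in YA (1.22 to 1.32) and 0.926 in OA (0.886 to 0.969). Of the libraries YA was highest and OA lowest, and YA was 1.37-fold of OA (1.31 to 1.43). ETV5 (ENSG00000244405.7; GRCh38 chromosome 3, 186046308 to 186110318) had normalised read counts of 2239, 2385 and 2358 in control, YA and OA, which are 1.07-fold (1.01 to 1.13) and 1.05-fold (0.993 to 1.12) of control. There were 2.20 ETV4 reads for each ETV5 read in YA (2.10 to 2.31), against 1.85 in control (1.76 to 1.95) and 1.63 in OA (1.54 to 1.72). CIC, which encodes Capicua, had 2729, 2966 and 2346 counts and stayed within 1.2-fold of control in both secretome libraries.

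PHLDA1 (ENSG00000139289.13; GRCh38 chromosome 12, 76025447 to 76033932) encodes a pleckstrin-homology-like protein and is a member of published ERK activity signatures. It had normalised read counts of 11536, 10189 and 17174 in the control, YA and OA libraries. OA was the highest library, at 1.49-fold of control (1.45 to 1.52), and YA the lowest, at 0.883-fold (0.861 to 0.906). The secretomes thus lay on opposite sides of control, with YA at 0.593-fold of OA (0.579 to 0.608). DUSP4 and PHLDA1 took similar places among the 4694 well-counted genes in OA against control, with 137 and 143 genes above them.

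CCND1 (ENSG00000110092.3; GRCh38 chromosome 11, 69641087 to 69654474) encodes cyclin D1, which partners CDK4 and CDK6 in the passage through G1. Its normalised read counts were 14026, 10396 and 16022 in the control, YA and OA libraries, so that YA was the lowest and OA the highest. The YA value was 0.741-fold of control (0.723 to 0.760), and 100 of the 4694 well-counted genes were lower. The OA value was 1.14-fold (1.12 to 1.17), and YA lay at 0.649-fold of OA (0.633 to 0.665). Its share of the reads assigned to the 10 genes was 20.3%, 16.3% and 22.1% in the control, YA and OA libraries. Exons of CCND1 share 10.3% of their bases with LTO1 on the other strand, which had 293, 413 and 219 counts.

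Summed over the 10 genes, reads came to 3411, 3160 and 3569 CPM in the control, YA and OA libraries, so the set as a whole differed far less than SPRY4, DUSP4 or PHLDA1. Its make-up differed more. DUSP4, PHLDA1 and CCND1 took 18.2%, 16.7% and 20.3% of these reads in control and 26.1%, 23.7% and 22.1% in OA, while SPRY4 went from 10.3% to 2.39% and DUSP6 from 8.75% to 4.99%. For each DUSP6 read there were 1.91, 1.90 and 4.75 PHLDA1 reads in the control, YA and OA libraries. The CCND1 reads for each DUSP6 read numbered 2.33, 1.94 and 4.43 in the same order.

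**Figure D3:**
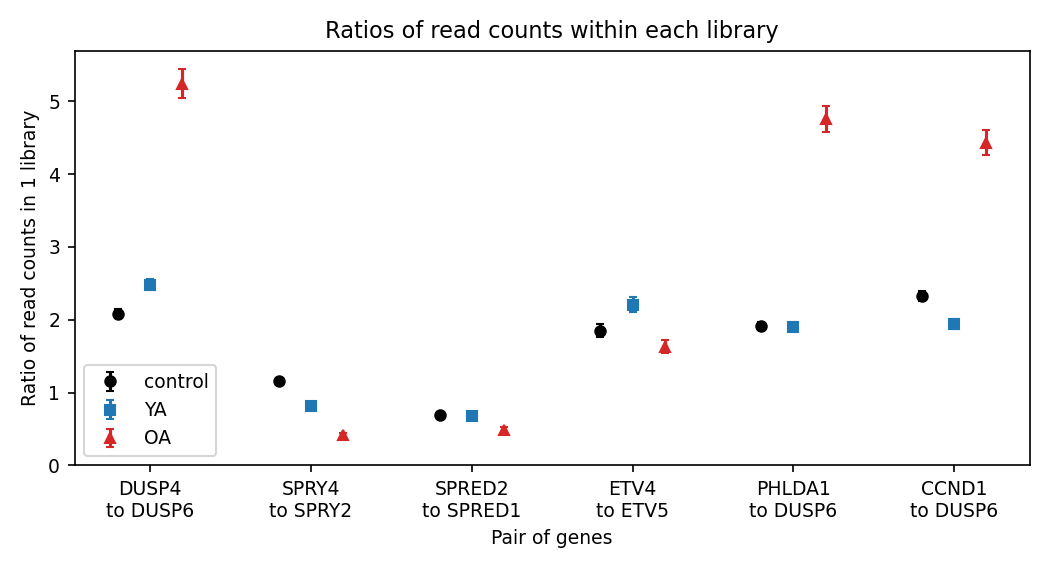
Number of reads of the first gene for each read of the second within 1 library (y axis, linear from 0), for 6 pairs of the 10 genes in control (black circles), YA (blue squares) and OA (red triangles), with bars for the 95% counting interval. The ratio of DUSP4 to DUSP6 goes from 2.08 in control to 5.24 in OA, and that of SPRY4 to SPRY2 from 1.16 to 0.419.

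Per kilobase of merged exons, which allows genes to be compared with each other, CCND1 had the highest level in every library, at 2904 normalised counts per kilobase in control, 2152 in YA and 3317 in OA. SPRY2 came second in control and YA, at 2014 and 2090, and in YA its counting interval overlapped that of CCND1. In OA the second place was taken by DUSP4, at 2610. SPRED2, ETV5 and SPRED1 were the last of the order in control, at 414, 386 and 370, and neighbours among these 3 overlapped in their counting intervals. SPRY4 was seventh in control, at 1080, and last in OA, at 264. Merged exons include those of rare transcripts, so these levels depend on the annotation.

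A gene was counted as higher or lower when its log2((a + 1)/(b + 1)) of normalised counts passed that cutoff of 1.2-fold. In OA against control 2 of the 10 genes were higher, beside 21.1% of 14413 genes tested, and 4 were lower, beside 21.5%. In YA against control 1 was higher, beside 17.4%, and 2 were lower, beside 16.4%. In YA against OA 5 were higher in YA, namely SPRY4, SPRY2, DUSP6, SPRED2 and ETV4, beside 23% of genes. The 3 that were lower in YA, PHLDA1, CCND1 and DUSP4, stand beside 21.5%. By that rule the numbers of higher genes in OA, and of higher and lower genes in YA, each against control, were near the background. The 3 lower in YA against OA were slightly above it. The 4 lower in OA and the 5 higher in YA against OA were further above it. How the numbers stand to the background depended on the rule. When the whole counting interval had to lie beyond 1.2-fold, none of the 6 numbers changed, but the background was smaller. For YA against control 6.03% of all genes were then higher and 4.44% lower, for OA against control 9.04% were higher and 9.08% lower, and for YA against OA 10% were higher and 9.03% lower. Genes with many reads, as these 10 are, pass that stricter rule more readily at the same fold. With 1 library per group no excess was tested. The median log2 fold change of the 10 genes was 0.02 in YA and -0.04 in OA against control and 0.23 in YA against OA, beside -0.02, 0.01 and -0.01 over all genes. The mean was -0.06 in YA, of the other sign than the median, and -0.25 in OA.

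The wider pathway was described by 6 further lists, whose numbers of higher and lower genes stand beside the same background shares of 17.4% and 16.4% in YA and 21.1% and 21.5% in OA. The 29 genes of the RAS-RAF-MEK-ERK cascade run from genes acting above RAS, such as GRB2 and SOS1, to the kinases that ERK activates. Regulators such as NF1 and PEBP1 are included. Within 1.2-fold of control lay 21 of the 29 genes in YA and 21 in OA, beside 66.2% and 57.4% of all genes tested. In YA 5 were higher and 3 lower, and in OA 3 were higher and 5 lower. The median log2 fold change of the list was -0.07 in YA and 0.00 in OA, the latter being -0.01 under both other scalings tried. The means, 0.01 and -0.04, had the other sign in each case. BRAF had 1090, 1214 and 880 counts in control, YA and OA, and its folds were 1.12 (1.03 to 1.21) and 0.962 (0.879 to 1.05). RPS6KA2, which encodes a ribosomal S6 kinase downstream of ERK, had the lowest fold of the list in OA, with 368, 494 and 123 counts and a fold of 0.398 (0.322 to 0.490). RASA1, a RAS GTPase-activating protein, was 1.44-fold of control in OA (1.35 to 1.54). In YA MKNK2, an ERK-activated kinase of the translation factor eIF4E, was 1.53-fold of control (1.44 to 1.63) and MRAS 0.701-fold (0.603 to 0.814).

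Among 8 other MAP kinase phosphatases, 7 passed the filter, of which 1 was higher and 3 lower in YA and 2 higher and 3 lower in OA. DUSP1, an immediate early phosphatase, had 681, 1058 and 385 counts in the control, YA and OA libraries, so it was 1.56-fold of control in YA (1.41 to 1.72) and 0.673-fold in OA (0.593 to 0.764). DUSP10, which prefers JNK and p38, was 0.616-fold in YA (0.522 to 0.726) and 1.21-fold in OA (1.05 to 1.39). DUSP9 was 0.538-fold in OA (0.403 to 0.711), and DUSP2, with 49, 58 and 78 counts, was 1.90-fold in OA (1.31 to 2.77). DUSP8 did not pass the filter. The median log2 fold change of the 7 phosphatases was 0.11 in YA and -0.10 in OA, and the mean in YA had the other sign, at -0.04. The YA median also changed sign with the filter, to -0.089 at a minimum mean of 100 and -0.020 with no filter.

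Of 9 further feedback genes and relatives, 8 passed the filter, with 1 higher and 4 lower in YA and 3 higher and 2 lower in OA. SPRY1, the Sprouty relative of SPRY2 and SPRY4, had 463, 536 and 152 counts in control, YA and OA. Its OA value was 0.391-fold of control (0.323 to 0.471) and its YA value 1.16-fold (1.02 to 1.32). All 3 Sprouty genes with reads were therefore lower in OA, and SPRY3 had no counts. IL17RD, which encodes the feedback inhibitor SEF, went the other way, with 291, 178 and 530 counts and folds of 0.614 in YA (0.506 to 0.742) and 2.17 in OA (1.88 to 2.51). Of the relatives of PHLDA1, PHLDA3, a p53-induced gene, was 2.17-fold of control in YA (2.04 to 2.31), and PHLDA2 was 0.628-fold (0.584 to 0.675). The median log2 fold change of the 8 genes was -0.11 in YA and 0.10 in OA, where the mean was -0.02.

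Of 20 other ERK-responsive genes, 18 passed the filter, with 5 higher and 5 lower in YA and 10 higher and 5 lower in OA. Their median log2 fold change was 0.01 in YA, where the mean was -0.02, and 0.34 in OA. The genes higher in OA included growth factors, with AREG at 218, 286 and 731 counts in control, YA and OA, a fold of 3.99 in OA (3.43 to 4.67). HBEGF, like AREG a ligand of the EGF receptor, was 2.77-fold in OA (2.37 to 3.24) and 0.691-fold in YA (0.562 to 0.848). VGF was higher in both, at 1.33-fold in YA (1.26 to 1.40) and 2.82-fold in OA (2.70 to 2.95). Lower in OA were FOS, an immediate early gene, at 0.419-fold (0.396 to 0.443), and EPHA4, with 695, 442 and 292 counts, which was also lower in YA, at 0.638-fold (0.565 to 0.720). EGR1, another immediate early gene, had 4945, 5384 and 3003 counts and a fold of 0.723 in OA (0.691 to 0.757). Immediate early genes did not move together in OA. IER3 was lower, at 0.599-fold (0.571 to 0.627), but EGR3 was higher, at 1.42-fold (1.21 to 1.66), as was IER2, at 1.28-fold (1.17 to 1.40).

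**Figure D4:**
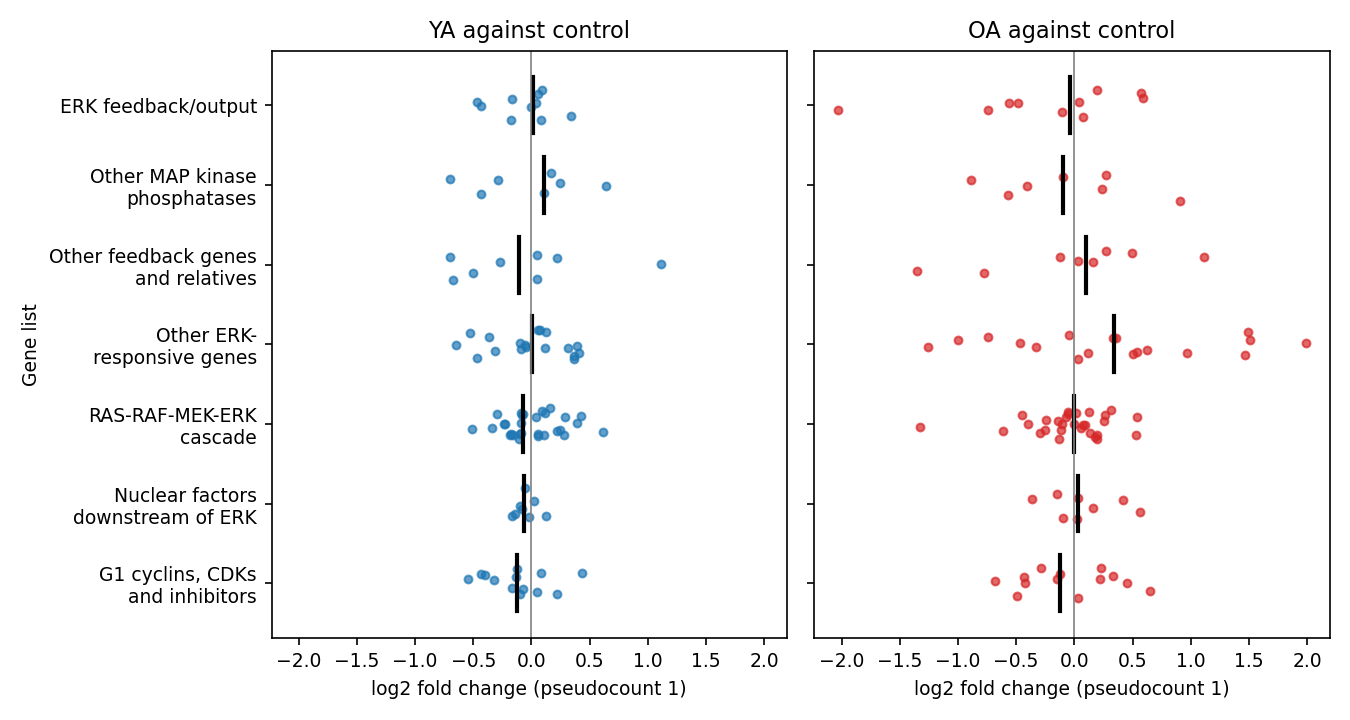
log2 fold change against control (x axis, pseudocount 1) in YA (left, blue) and OA (right, red) of every gene that passed the filter in the 10 genes and 6 further lists (y axis), with 1 point per gene, jittered vertically, and a black bar at each list's median. The median of the other ERK-responsive genes is 0.34 in OA, while SPRY4 at -2.03 is the lowest point of all lists.

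Of 8 nuclear factors that lie downstream of ERK, none passed 1.2-fold in YA, and 2 were higher and 1 lower in OA. ETS1, a founding ETS factor, was 1.48-fold of control in OA (1.40 to 1.56). Among 15 genes of the G1 cyclin and CDK machinery, 13 passed the filter, with 1 higher and 4 lower in YA and 3 higher and 5 lower in OA. CDK6, a partner of cyclin D1, had 11456, 11832 and 7151 counts and was 0.744-fold of control in OA (0.722 to 0.766). RB1, the target of these kinases, was 0.709-fold (0.668 to 0.753), and CDKN1A, the inhibitor p21, was 1.57-fold, with 3591, 3798 and 4720 counts. In YA CDKN1B, the inhibitor p27, was 0.739-fold (0.670 to 0.815). On the log2 scale the nuclear factors had medians of -0.07 (YA) and 0.03 (OA) against control, and the G1 genes -0.12 in both.

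The genes whose pair of log2 fold changes in YA and OA lay nearest to that of DUSP6 were NATD1, KLHL24 and ANK3, by distance in these 2 values among 11152 genes whose mean normalised count reached 100. NATD1 had 445, 396 and 223 counts. The nearest to CCND1 were HIST2H2BE, DLX1 and ADGRL4, and HIST2H2BE had 178, 131 and 172 counts. With 3 libraries, 47 of the 11152 genes lay within 0.1 of DUSP6 and 48 within 0.1 of CCND1, so the named genes were not alone in this likeness.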

How the data were processed

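Poly(A) RNA sequencing of A375 cells was analysed for 3 libraries, 1 each of control, YA and OA, grouped by the treatment labels. The authors deposited raw counts per gene. The submitters' processing notes name hg38, STAR 2.5.1b, featureCounts and R 3.6.1 without their roles. The annotation release and the use of strand are not given in the sources used here.

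Size factors were taken from DESeq2 1.42.0 (median of ratios) in R 4.3.3. Genes whose mean normalised count reached 20 were kept, and log2 fold changes had a pseudocount of 1. Folds without pseudocount carry 95% Clopper-Pearson intervals from the reads of both libraries, levels per kilobase exact Poisson intervals, and a count of 0 allows up to 3. With 1 library per group edgeR's quasi-likelihood test could not be fitted. The steps were tested on simulated counts with Poisson error alone, which is the error the intervals assume. Spread between cultures and repeated reads of 1 molecule were therefore not covered by that test. Further steps used Python 3.11.15 with scipy 1.17.1, pandas 2.3.3 and numpy 2.4.6, and plots matplotlib 3.10.9.

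The 10 genes and all lists were chosen with earlier results of these data known. Named genes were all 10, in each list and comparison the gene with the highest lower bound and that with the lowest upper bound, if wholly beyond 1.2-fold, and the 3 genes nearest in pattern to DUSP6 and to CCND1. The gene pairs, BRAF, CIC, EGR1, EGR3, IER2, IER3, EPHA2, the marker genes and the overlapping genes were named after their values were seen. Positions and exon lengths came from GENCODE 29 (57433 of 58037 identifiers matched) and upstream sequences from RefSeq.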

Additional observations from a re-analysis of the deposited data

How the results depend on the processing

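The folds of the 10 genes in 3 comparisons, 30 values, moved on the log2 scale by at most 0.0136 under TMM scaling from edgeR 4.0.16, 0.012 under total-count scaling and 0.0025 with a pseudocount of 5, and none left its counting interval. The 6 numbers of genes past 1.2-fold did not change under these, with no filter, with a minimum mean of 100 or when the whole counting interval had to lie beyond 1.2-fold. The numbers over all genes did move under the interval rule, in YA against control from 2501 to 869 higher and from 2370 to 640 lower, and in OA against control from 3048 to 1303 and from 3092 to 1308. Stricter thresholds lower the numbers by construction. At 1.5-fold YA against control had 0 higher and 0 lower genes, OA against control 1 and 2, and YA against OA 2 and 2. Over all 14413 genes tested the numbers were 901 and 652, 1089 and 1270, and 1487 and 1106 in the same order. At 2-fold the numbers of the 10 genes were 0 and 0, 0 and 1, and 1 and 0. Over all genes they were 310 and 140, 412 and 535, and 639 and 438. The mean log2 fold change of the 10 genes, in place of the median, was -0.064 for YA and -0.25 for OA against control. Where the mean differs from the median in OA, SPRY4 is the farthest value from it. The median of the cascade in OA changed sign under both other scalings, from 0.00 to -0.01. The median of the other phosphatases, over few genes, depended on the filter. At a minimum mean of 100 and with no filter it was -0.089 and -0.020 in YA against control in place of 0.11, -0.25 by both in OA against control in place of -0.10, and 0.12 by both in YA against OA in place of -0.03. No paired analysis was possible because each group has 1 library. The spread between cultures was not measured, and intervals cover counting error alone.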

Other observations

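EPHA2 and EPHA4, both Eph receptor tyrosine kinases, belong with several of the 10 genes to published signatures of MAPK activity. EPHA2, which was chosen after its values had been seen, had 12190, 12667 and 12842 counts in the control, YA and OA libraries, and its OA value was 1.25-fold of control (1.22 to 1.29). EPHA4 was lower than control in both secretome libraries, with 695, 442 and 292 counts. CSPG4, a melanoma surface proteoglycan and the most abundant of the melanocytic markers, had 19441, 29002 and 16208 counts, so that YA was the highest.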
